A study of Homo sapiens with 13 samples.

Results

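H1975 cells, an established human lung adenocarcinoma line that carries a mutated EGF receptor, were compared after 4 h and 6 h in starvation medium with the same cells at 0 h. The comparison used 5 of 13 arrays, the single array of 4 h and the single array of 6 h, pooled, against 3 arrays of 0 h, and a difference was called only where both later arrays agreed. All cells had already spent the night in DMEM without fetal calf serum (FCS), so 0 h is a starved state too, and no array of these 13 received EGF. The other arrays were 1 each at 0.5 h, 1 h and 2 h, 2 at 24 h and 3 at 48 h. One cell line was used, and no label ties the replicates to separate cultures, so every p-value reflects the spread among these arrays, which may be technical. Control arrays of 8 h and 12 h were not analysed here.

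Growth factors in serum act on receptor tyrosine kinases such as the EGF receptor, and the ERK kinase cascade below them switches on immediate early genes within minutes. These genes, among them FOS, JUN, EGR1 and MYC, encode transcription factors, and their transcripts are short-lived and are cut back by phosphatases of the DUSP family that the same cascade induces. When serum is withdrawn, this input is lost, FOXO factors enter the nucleus and growth-related transcription declines. A fresh change of medium on its own is also a stimulus to adherent cells. Lung adenocarcinomas often keep part of the programme of alveolar type II cells, which make the surfactant proteins.

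RNA was read on the GeneChip Human Gene 2.0 ST Array. The deposited values are SCAN scores (Single Channel Array Normalisation), in which each array is standardised on its own: a score near 0 is background, and a difference of scores is not a log2 fold change. Of 39937 features 15638 had a gene name, and 12976 of these, with 12371 symbols, reached a score of at least 0 on at least 1 array and were tested. Epithelial markers were well above background, with EPCAM, an epithelial adhesion molecule, between 2.12 and 2.25 on all arrays and KRT18, an epithelial keratin, between 2.51 and 3.00. Of the leukocyte markers CD14 and LYZ stayed at or below 0.156 on every array, whereas CD68, a lysosomal glycoprotein, lay between 2.32 and 2.65. No member of the epithelial, leukocyte, endothelial or fibroblast lists was called in the comparison with 0 h.

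One of the 0 h arrays stood apart before any comparison was made. Across the tested features 0 h replicate 1 correlated with the other 0 h arrays at 0.981 and 0.982, whereas these correlated with each other at 0.996 and with the 4 h and 6 h arrays at 0.994 to 0.995. Of the arrays of 0, 2, 4 and 6 h the nearest to it was that of 2 h (0.994), which correlated with 4 h and 6 h at 0.985 only. The departure of 0 h replicate 1 from the mean of the other 0 h arrays and the departure of the 2 h array from the mean of 1 h and 4 h were correlated at 0.764 across features, as a description without a test. The 2 h array enters none of the contrasts. The study's methods say that some arrays were excluded and do not name them. The counts, the features called against 0 h and the list medians are therefore given with and without 0 h replicate 1. Values of single list members that were not called are given without it unless stated. The 4 h and 6 h arrays themselves correlated at 0.996, and their median absolute difference per feature, 0.0394, was close to that between 0 h replicates 2 and 3, 0.0420.

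With all 3 arrays of 0 h, no feature passed the test at 4 h and 6 h (0 of 12976, 0.0%; limma with Benjamini-Hochberg adjustment at 0.05). The smallest adjusted p was 0.141, for CXCL17, and 635 features had an unadjusted p under 0.05. Without 0 h replicate 1, 24 features were called. Of these 22 rose (0.17% of those tested) and 2 fell (0.0154%), and 1652 features had an unadjusted p under 0.05. The 5 largest rises were those of PAEP, a secreted glycoprotein, ZNF253, a zinc finger protein, CXCL17, a chemokine, PRAMEF22, of a cancer-testis gene family, and the microRNA locus MIR891A, and the 2 falls were those of POMP and MOCS3. Differences were small, from 0.195 to 0.418 score units in size, at a median standard error of 0.0397 for these 24. The median feature moved by 0.0182 without and by 0.0112 with 0 h replicate 1. The split between rises and falls depended on the scaling of the arrays, since it was 8 and 1 after quantile normalisation and 9 and 8 after each array had been centred on its median. The count also rested on single arrays: with 1 more left out, 1 feature was called without the 4 h array, 9 without the 6 h array, 2 without 0 h replicate 2 and 14 without 0 h replicate 3.

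**Figure D1:**
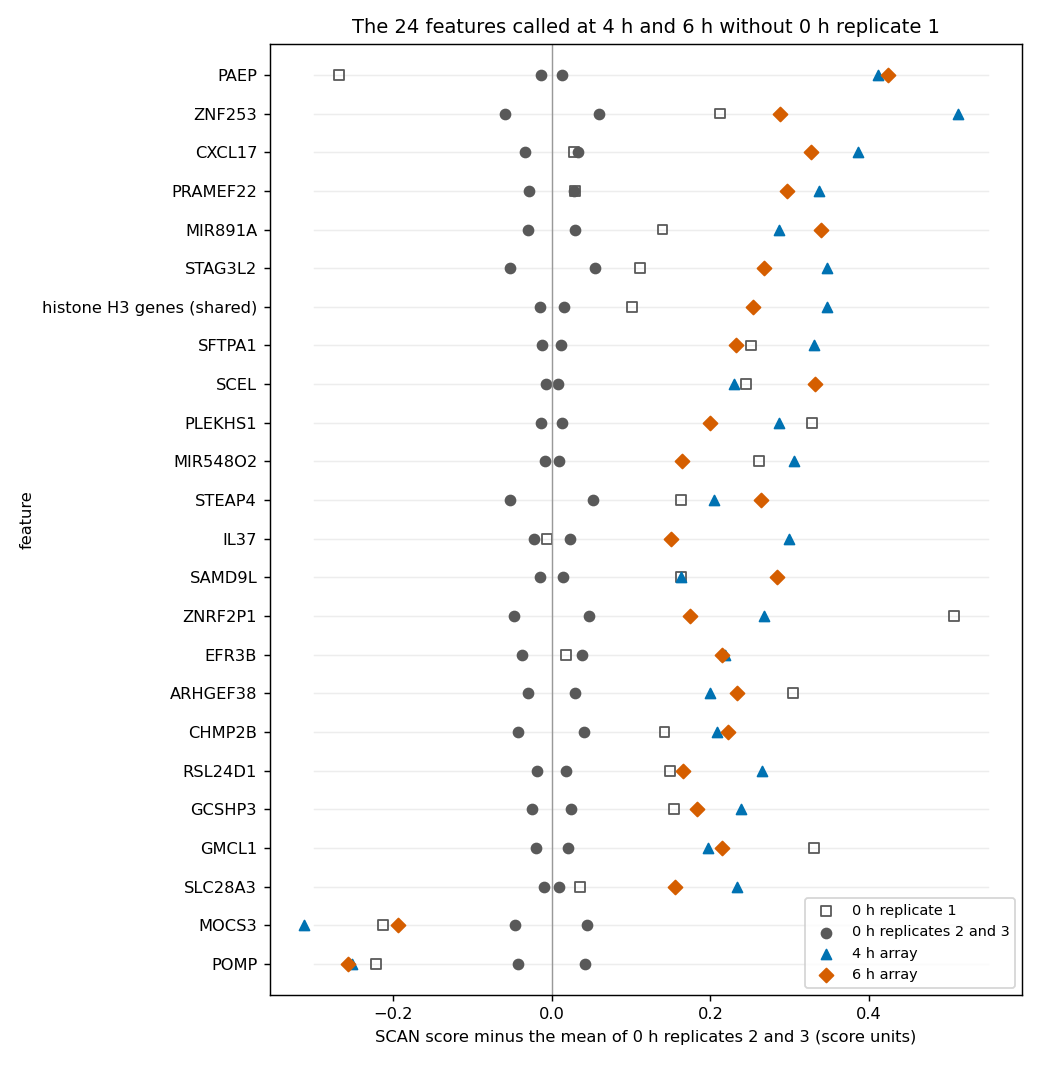
SCAN score of the 24 called features on the 5 arrays of the comparison, as the difference (score units, horizontal axis) from the mean of 0 h replicates 2 and 3. Each symbol is 1 array, without error bars; the open square of 0 h replicate 1 lies on the side of the 4 h and 6 h arrays for most features, and level with or beyond 1 or both of them for 9, while for PAEP it lies on the other side.

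PAEP had the largest rise. It encodes glycodelin, a secreted glycoprotein of the lipocalin family first known from the endometrium. Its score was 1.11, 1.37 and 1.40 on the 0 h arrays (replicates 1 to 3), 1.79 at 4 h and 1.81 at 6 h. Both later arrays were above all arrays of 0 h, and 0 h replicate 1 was the lowest of them. The difference was 0.418 (SE 0.0417, adjusted p = 0.0014, limma) without and 0.507 (SE 0.0755, adjusted p = 0.21) with 0 h replicate 1. PAEP was the only one of the 24 that kept its call under each of the 18 alternatives computed without 0 h replicate 1, with an adjusted p of 2.22e-05 to 0.0333.

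CXCL17, a chemokine of mucosal surfaces, scored 0.616, 0.622 and 0.555 at 0 h, 0.974 at 4 h and 0.915 at 6 h. Here the 3 arrays of 0 h lay together and well below both later arrays, so that the difference was nearly the same without 0 h replicate 1 (0.356, SE 0.0427, adjusted p = 0.00618) as with it (0.347, SE 0.0435, adjusted p = 0.141). Its call was lost in 1 of the 18 alternatives, at an adjusted p of 0.0712.

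SFTPA1, which encodes surfactant protein A of alveolar type II cells, was close to background at 0 h. Replicates 2 and 3 scored 0.176 and 0.153, against 0.495 at 4 h and 0.397 at 6 h, and the rise without 0 h replicate 1 was 0.281 (SE 0.0460, adjusted p = 0.0312). Replicate 1 of 0 h, at 0.416, lay between the 4 h and the 6 h array, so the groups overlapped with it and the difference was 0.198 (adjusted p = 0.963). The paralogue SFTPA2 is nearly identical in sequence, and probes of one may bind transcripts of the other.

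SCEL, sciellin, a precursor of the cornified envelope of stratified epithelia, behaved in the same way. It scored 1.82 and 1.83 on 0 h replicates 2 and 3, 2.06 at 4 h and 2.16 at 6 h, a rise of 0.281 (SE 0.0441, adjusted p = 0.0276), but 2.07 on 0 h replicate 1, above the 4 h array. With all arrays the difference was 0.199 (adjusted p = 0.963).

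The promoters of PAEP and SCEL are shown because they were the only ones among the 15 called genes with a RefSeq promoter entry whose 250 bases before the annotated start held the AP1 motif TGACTCA on either strand, the site bound by FOS and JUN proteins. This motif was found in 4.203% of all 35116 promoters of that length. Of the other motifs searched, the metal response element TGCGCNC, in 16.79% of all promoters, was held by 4 of the 15, and the rest by none. Some of these genes have several annotated starts, so a count of genes is not directly comparable with a share of single promoters. The AP1 motif begins at base -95 from the transcript start in PAEP and at base -49 in SCEL. The stretches are the last 120 bases before the start, from RefSeq on GRCh38.p14, with the motif or its reverse complement in capitals. A match of letters is a description and says nothing of binding. PAEP lies at chr9:135561636-135561755 on the plus strand and SCEL at chr13:77535586-77535705 on the plus strand.
PAEP: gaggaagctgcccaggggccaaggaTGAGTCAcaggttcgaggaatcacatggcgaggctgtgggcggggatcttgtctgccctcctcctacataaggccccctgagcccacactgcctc
SCEL: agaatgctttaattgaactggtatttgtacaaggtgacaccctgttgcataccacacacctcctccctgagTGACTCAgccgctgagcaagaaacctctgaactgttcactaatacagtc

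IL37, an anti-inflammatory cytokine of the interleukin-1 family, scored 0.316, 0.299 and 0.344 at 0 h, 0.621 at 4 h and 0.472 at 6 h. Both later arrays were above all 3 of 0 h, and the difference was 0.225 (SE 0.0359, adjusted p = 0.0291) without and 0.227 (adjusted p = 0.231) with 0 h replicate 1. SAMD9L, an interferon-induced inhibitor of translation, had 0.810 and 0.839 on 0 h replicates 2 and 3, 0.987 at 4 h and 1.11 at 6 h. It rose by 0.223 (SE 0.0359, adjusted p = 0.0291), but 0 h replicate 1, at 0.987, was level with the 4 h array, and with it the difference was 0.169 (adjusted p = 0.932).

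SLC28A3, a sodium-coupled nucleoside transporter, scored 0.986, 0.941 and 0.959 at 0 h, 1.18 at 4 h and 1.11 at 6 h. Its difference, 0.195 (SE 0.0346, adjusted p = 0.0430), was the smallest of the 24 and hardly moved with 0 h replicate 1 (0.183, adjusted p = 0.529). STEAP4, a metalloreductase that supplies cells with reduced iron and copper, scored 1.21, 0.990 and 1.09 at 0 h, 1.25 at 4 h and 1.31 at 6 h, and rose by 0.234 (SE 0.0401, adjusted p = 0.0374), or 0.180 (adjusted p = 0.932) with 0 h replicate 1. EFR3B, which holds a phosphatidylinositol 4-kinase at the plasma membrane, scored 0.752, 0.697 and 0.772 at 0 h and 0.953 and 0.949 at 4 h and 6 h, a rise of 0.217 (SE 0.0394, adjusted p = 0.0452) without and 0.211 (adjusted p = 0.529) with 0 h replicate 1. For all 3 of these genes both later arrays lay above every array of 0 h. PLEKHS1, a pleckstrin homology domain protein, and ARHGEF38 rose by 0.243 and 0.217 without 0 h replicate 1, but this array, at 1.40 and 0.525, was above both later arrays for each of them (1.36 and 1.27 for PLEKHS1, 0.421 and 0.454 for ARHGEF38). With it the differences were 0.134 and 0.115 (adjusted p = 0.963 for both).

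Several of the called features belong to families with near-identical copies, where the array cannot assign the signal to 1 gene. PRAMEF22, of the PRAME family of cancer-testis genes, scored 0.735, 0.677 and 0.734 at 0 h, 1.04 at 4 h and 1.00 at 6 h. The arrays of the times did not overlap, and the difference was 0.316 (SE 0.0416, adjusted p = 0.00906) without and 0.307 (adjusted p = 0.169) with 0 h replicate 1. STAG3L2, a transcribed pseudogene related to the cohesin subunit STAG3, rose by 0.306 (adjusted p = 0.0154), and a feature that the annotation assigns to several histone H3 genes at once rose by 0.2996 (adjusted p = 0.0176). With 0 h replicate 1 the differences were 0.269 and 0.266 (adjusted p = 0.529 for both). Both later arrays were above all 3 of 0 h in each case. The pseudogene ZNRF2P1 rose by 0.221 without 0 h replicate 1, which at 1.80 exceeded the 4 h array (1.56) and the 6 h array (1.47), and over all arrays its difference was 0.0517 (adjusted p = 0.980).

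ZNF253, a zinc finger protein of the KRAB type, had the second largest difference and the least even pair of arrays. It scored 2.09, 1.82 and 1.94 at 0 h, 2.39 at 4 h and 2.17 at 6 h, so that the 6 h array lay 0.225 below the 4 h array, the widest gap of the 24. The rise was 0.399 (SE 0.0518, adjusted p = 0.00906) without and 0.329 (adjusted p = 0.760) with 0 h replicate 1.

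Of 557 measured microRNA loci 2 rose, MIR891A and MIR548O2, where 0.17% of all tested features rose, and none fell. The median over these loci was 0.00982 without and -0.00289 with 0 h replicate 1, both below that of all tested features. The array reads the primary or precursor transcript of such a locus, not the mature microRNA. MIR891A, of an X-linked cluster known from the epididymis, scored 0.630, 0.520 and 0.461 at 0 h, 0.777 at 4 h and 0.830 at 6 h, with no overlap. It rose by 0.313 (SE 0.0422, adjusted p = 0.00943) without and by 0.266 (adjusted p = 0.687) with 0 h replicate 1. MIR548O2, of a large primate-specific family, had 0.406 and 0.424 on 0 h replicates 2 and 3, 0.720 at 4 h and 0.579 at 6 h, and 0 h replicate 1, at 0.676, lay between the later arrays. Its rise was 0.235 (SE 0.0391, adjusted p = 0.0322) without and its difference 0.147 (adjusted p = 0.963) with that array. The mature sequences are given from RefSeq (GRCh38.p14) with the seed, bases 2 to 8, in capitals, since the seed decides which transcripts a microRNA pairs with. The 2 loci do not share a seed.
miR-891a-5p: uGCAACGAaccugagccacuga
miR-548o-3p: cCAAAACUgcaguuacuuuugc

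The remaining rises were small. CHMP2B, a subunit of the ESCRT-III membrane scission complex, RSL24D1, a factor in the assembly of the large ribosomal subunit, GMCL1, a BTB domain protein, and the pseudogene GCSHP3 rose by 0.205 to 0.215 without 0 h replicate 1 (adjusted p from 0.0430 to 0.0452). For GMCL1 this array, at 0.737, was above both later arrays (0.604 and 0.621), and for the other 3 it was below them. With it the differences were 0.0953 for GMCL1 and 0.159 to 0.168 for the others (adjusted p from 0.932 to 0.963). The scores of GCSHP3, 0.0913 and 0.140 on 0 h replicates 2 and 3, are near background.

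The 2 features that fell were POMP and MOCS3. POMP, a chaperone for the assembly of the 20S proteasome, scored 2.76, 3.02 and 2.94 at 0 h, 2.73 at 4 h and 2.72 at 6 h. The later arrays were below all 3 of 0 h, though 0 h replicate 1 was only just above them, and the difference was -0.254 (SE 0.0375, adjusted p = 0.0176) without and -0.180 (adjusted p = 0.963) with it. MOCS3, an enzyme that supplies sulfur for the molybdenum cofactor and for the thiolation of tRNA, had 1.09 and 1.18 on 0 h replicates 2 and 3, 0.825 at 4 h and 0.944 at 6 h. It fell by 0.253 (SE 0.0423, adjusted p = 0.0322), with 0 h replicate 1 at 0.925 between the later arrays, and with this array the difference was -0.182 (adjusted p = 0.963).

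Over all 24, both later arrays lay beyond all 3 arrays of 0 h for 14 of the 22 that rose and for 1 of the 2 that fell. Among all tested features this held without any test for 1667 above (12.8%) and 761 below (5.86%). Since the calls come from the same arrays, nothing is read from the higher share among them. Over all 13 arrays 19 of the 24 had an unadjusted p under 0.05 (limma), where 635 of all 12976 tested features did. Those arrays include the ones that gave the calls, so nothing is read from this count either.

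The values at the other times show that these features did not share 1 course. PAEP was already at 1.59 at 0.5 h and 1.70 at 1 h and reached 2.25 and 2.29 at 24 h and 2.41 to 2.52 at 48 h. CXCL17 was at 0.711 at 0.5 h and 0.778 at 1 h and at 1.48 to 1.59 at 48 h, and SFTPA1 was at 0.268 and 0.314 at 0.5 h and 1 h and at 1.06 to 1.11 at 48 h. For these 3 the 4 h and 6 h arrays were intermediate between the first hour and the last 2 times. PRAMEF22 and MIR891A were instead highest before 24 h. PRAMEF22 was already at 0.942 and 1.03 at 0.5 h and 1 h, and at 0.829 and 0.773 at 24 h. At 48 h it was at 0.644 to 0.742, where its 0 h arrays lay too. MIR891A was at 0.541 and 0.726 at 0.5 h and 1 h and highest on the 2 h array (0.867). At 48 h it was at 0.209 to 0.313, below each array of 0 h. POMP was at 2.65 at 0.5 h and at 2.61 and 2.60 at 24 h, below its 4 h and 6 h scores, and at 2.82 to 2.84 at 48 h.

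Set against 4 h and 6 h, with which it shares these arrays, the 24 h level of PAEP was 0.472 higher (SE 0.0827, adjusted p = 0.0217, all 13 arrays), that of SLC28A3 0.218 higher (adjusted p = 0.0217) and that of MOCS3 0.412 higher (adjusted p = 0.0215). That of PRAMEF22 was lower, by -0.221 (adjusted p = 0.0424), as was that of MIR891A, by -0.288 (adjusted p = 0.0373). In this comparison as a whole, which does not use the 0 h arrays as its reference, 139 features were higher at 24 h (1.07%) and 130 lower (1.0%) over 13 arrays, and 798 and 548 when 0 h replicate 1 was left out of the pooled spread. The split over 13 arrays was 143 higher and 185 lower after quantile normalisation and 102 and 191 after centring, and without 0 h replicate 1 it was 554 and 842 after centring. The 269 features called over 13 arrays compare with 12 without the 4 h array, 87 without the 6 h array, 8 without 24 h replicate 1 and 0 without 24 h replicate 3. Between 4 h and 6 h themselves no feature passed (limma, 202 with an unadjusted p under 0.05 over 13 arrays and 625 without 0 h replicate 1), at a smallest adjusted p of 0.242 without that array.

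**Figure D2:**
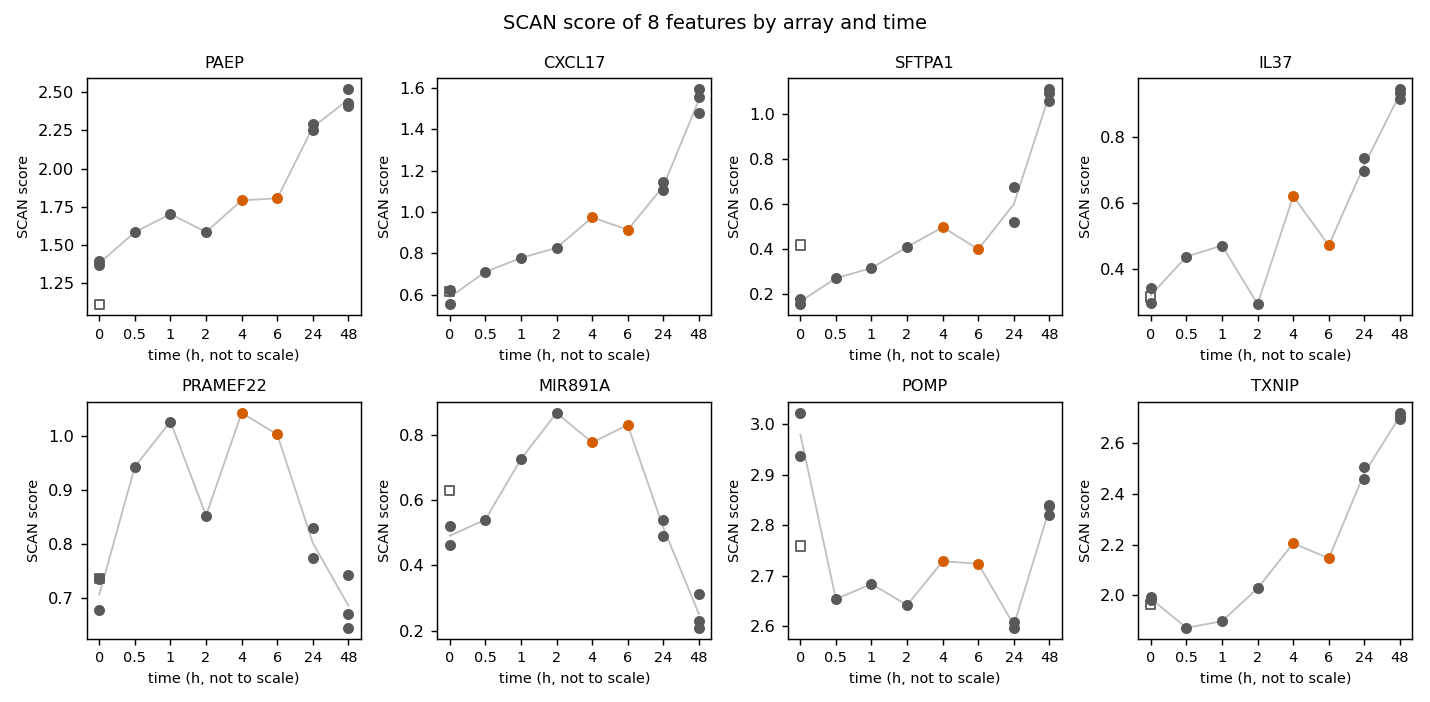
SCAN score (vertical axis) of 8 features on each of the 13 arrays by time in hours (horizontal axis, not to scale). Points are single arrays, 4 h and 6 h in orange and 0 h replicate 1 as an open square, and the line joins the means without that square; PAEP, CXCL17, SFTPA1, IL37 and TXNIP are highest at 48 h, whereas PRAMEF22 and MIR891A peak between 1 h and 6 h.

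None of the immediate early factors, of the feedback inhibitors of ERK and of the genes that the study discusses was called at 4 h and 6 h against 0 h. EGR1 scored 1.19, 1.08 and 1.20 at 0 h, 1.18 at 4 h and 1.21 at 6 h, and its difference of 0.0615 (SE 0.0472, adjusted p = 0.625) without 0 h replicate 1 was smaller than the range of the 0 h arrays. JUN scored 1.17, 1.08 and 1.11 at 0 h, 1.03 at 4 h and 1.16 at 6 h (difference -0.00524, SE 0.0365). The medians over 25 measured immediate early factors and 12 measured feedback inhibitors of ERK were 0.00458 and 0.00634 without 0 h replicate 1, below the 0.0182 of all tested features, and 0.0298 and 0.0314 with it, above the 0.0112 of all. FOS, at 0.0634 to 0.107 at 0 h and 0.146 and 0.161 later, and EGR2, at or near 0 on all 5 arrays, were near background, in the range of the SFTPA1 scores at 0 h or below. MYC had a difference of -0.0475 (adjusted p = 0.638), CXCL8, a neutrophil chemokine, of 0.0519 (adjusted p = 0.659), and IL24, KITLG and GLIPR1 of 0.0263, -0.0406 and 0.0112. PTGS2, the inducible cyclooxygenase, came nearest, with 1.07, 0.963 and 0.971 at 0 h, 1.17 at 4 h and 1.27 at 6 h (difference 0.252, SE 0.0527, adjusted p = 0.0696 without and 0.932 with 0 h replicate 1).

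Against the first hour several of these genes did differ. The mean of 4 h and 6 h was compared with the mean of the single arrays of 0.5 h and 1 h, a contrast in which the 0 h arrays serve only to estimate the spread. Over 13 arrays no feature passed (smallest adjusted p = 0.0753, 533 with an unadjusted p under 0.05, limma). The adjusted p was 0.0753 for CCN1, TXNIP and the microRNA locus MIR221, 0.151 for JUN and 0.199 for CCN2 and KLF6. It was 0.621 for EGR1, 0.658 for DUSP1 and RSRP1 and 0.966 for MYC. For this contrast, the adjusted p given below for single features are from the fit without 0 h replicate 1. There EGR1 kept its call in 9 of 17 alternatives. When 0 h replicate 1 was left out of the spread, 17 were lower at 4 h and 6 h (0.131%) and 5 higher (0.0385%). These differences themselves do not depend on that array, but their calls do, and 4 features were called when the 4 h array was left out as well.

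The matricellular proteins CCN1 and CCN2, classic targets of YAP and of serum response factor, were among the largest. CCN1 scored 1.13 at 0.5 h and 1.30 at 1 h, and 0.758 at 4 h and 0.936 at 6 h, where the 0 h arrays had 0.848 to 0.895. It was lower by -0.367 (SE 0.0404, adjusted p = 0.00145). CCN2, formerly CTGF, scored 0.840 and 0.979 in the first hour and 0.516 and 0.626 at 4 h and 6 h (-0.339, SE 0.0378, adjusted p = 0.00145), within 0.572 to 0.710 at 0 h for the 6 h array and below it for the 4 h array. At 24 h CCN1 was again at 1.15 and 1.22, whereas CCN2 was at 0.576 and 0.599.

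Transcription factors and a phosphatase of the immediate early group were lower too, but by less than KLF7-IT1 (-0.321) and the microRNA locus MIR2355 (-0.305). Genes outside this group were also called lower, namely MOCS3 (-0.286), LINC-PINT (-0.254), PRDM10 (-0.206), ATG101 (-0.199) and MOB3A (-0.195). DUSP1, which inactivates MAP kinases, scored 1.02 and 1.07 at 0.5 h and 1 h, 0.712 and 0.769 at 4 h and 6 h and 0.554 to 0.765 at 0 h (-0.304, SE 0.0401, adjusted p = 0.00393). JUN scored 1.39 and 1.38 in the first hour and was lower by -0.291 (SE 0.0365, adjusted p = 0.00264). MYC scored 1.40 and 1.54 in the first hour and 1.21 and 1.16 later (-0.284, SE 0.0376, adjusted p = 0.00393), EGR1 1.49 and 1.44 in the first hour (-0.266, SE 0.0472, adjusted p = 0.0430), and KLF6, a zinc finger factor, 1.75 and 1.85 against 1.49 and 1.62 (-0.247, adjusted p = 0.0113). For DUSP1, JUN, MYC, EGR1 and KLF6 both arrays of the first hour were above all arrays of 0 h as well, as they were for 12 of the 17 features called lower. These features were chosen with the same arrays of the first hour, so nothing is read from this count. At 24 h JUN was at 1.41 and 1.46 and EGR1 at 1.57 and 1.64, above their first-hour scores. DUSP1, MYC and KLF6 stayed below theirs at 24 h. Of the 17 features that were lower than in the first hour, 5 were called higher at 24 h than at 4 h and 6 h over 13 arrays, and none lower. Of all tested features 1.07% were called higher and 1.0% lower. The 17 were chosen for low scores at 4 h and 6 h, the reference here, so nothing is read from this count.

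Of 25 measured immediate early factors 4 were called lower in this comparison, against 0.131% of all tested features, and the median over the list was -0.0627, against -0.0101 over all tested features. Of 12 feedback inhibitors of ERK, DUSP1 alone was called, at a median of -0.0411. SNAI2, a repressor of epithelial genes, and HAS2, a hyaluronan synthase, were lower than in the first hour too (-0.232 and -0.254, adjusted p = 0.0114 and 0.0113), but they were also at the low end against 0 h. SNAI2 had 1.48 to 1.53 at 0 h and 1.36 and 1.35 at 4 h and 6 h, and HAS2 had 1.48 to 1.61 at 0 h and 1.34 and 1.31 later, with adjusted p of 0.0814 and 0.0745 against 0 h without replicate 1.

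The promoters of CCN2 and DUSP1 are shown because CCN2 is a known target of YAP with its TEAD partners and DUSP1 of the cyclic AMP responsive factor CREB. The 180 bases before the start of CCN2 (chr6:131951373-131951552, minus strand) hold the TEAD motif GGAATG, the partner site of YAP, 3 times, at -169, -104 and -95, and this motif is found in the 250 bases before the start of 11.89% of all promoters. The 140 bases before the start of DUSP1 (chr5:172771196-172771335, minus strand) hold the cyclic AMP response element TGACGTCA at -125, the E-box CACGTG at -108 and a metal response element TGCGCNC at -70, found in 1.646%, 6.345% and 16.79% of all promoters. Both strands were searched, the motifs are in capitals, and the sequences are from RefSeq on GRCh38.p14. Of the 10 lower genes with a promoter entry, PRDM10 also held the TEAD motif and LINC-PINT the E-box, though not before every annotated start. KLF6 held the E-box and a metal response element. Where a gene has several annotated starts, its match is not directly comparable with a share of single promoters.
CCN2: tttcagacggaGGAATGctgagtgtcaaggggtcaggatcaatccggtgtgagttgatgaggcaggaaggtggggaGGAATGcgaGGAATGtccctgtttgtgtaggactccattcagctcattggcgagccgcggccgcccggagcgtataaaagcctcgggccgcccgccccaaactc
DUSP1: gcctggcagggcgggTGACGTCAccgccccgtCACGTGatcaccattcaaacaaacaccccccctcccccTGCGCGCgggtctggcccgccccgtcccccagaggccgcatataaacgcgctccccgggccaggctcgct

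Of the called microRNA loci MIR221 differed most from the first hour. It scored 1.98 and 1.94 at 0.5 h and 1 h, 1.59 and 1.64 at 4 h and 6 h (-0.345, SE 0.0387, adjusted p = 0.00145), and 1.72 to 1.79 at 0 h, so the later arrays were below all arrays of 0 h (-0.130, adjusted p = 0.178 without replicate 1). At 24 h MIR221 was at 1.90 and 1.92. MIR222, its neighbour in the same primary transcript, had a difference from 0 h of 0.0507 (adjusted p = 0.676) and was not called against the first hour. The mature sequences of both are given because they share their seed (capitals), from RefSeq on GRCh38.p14.
miR-221-3p: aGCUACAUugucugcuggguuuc
miR-222-3p: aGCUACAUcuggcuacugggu

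TXNIP, an arrestin-like inhibitor of thioredoxin and of glucose uptake that FOXO factors can induce, was among the 5 features that were higher than in the first hour. RSRP1 and TDP2 had larger differences. TXNIP scored 1.87 and 1.90 at 0.5 h and 1 h, 2.21 at 4 h and 2.15 at 6 h (0.289, SE 0.0351, adjusted p = 0.00205), and its 3 arrays of 0 h lay together at 1.96 to 1.99. Against 0 h the difference was 0.188 (SE 0.0351, adjusted p = 0.0532) without and 0.196 (adjusted p = 0.529) with replicate 1, just outside the threshold in the first case, and both later arrays were above all 3 of 0 h. RSRP1, an arginine and serine rich protein, scored 0.973 and 0.809 in the first hour and 1.26 and 1.26 later (0.368, SE 0.0406, adjusted p = 0.00145), against 1.29, 1.08 and 1.01 at 0 h. TDP2, which repairs DNA ends blocked by topoisomerase, ZNF284, a zinc finger protein, and ZNRF2P1 were each higher by 0.212 to 0.295, and each of them was highest on 0 h replicate 1 or the 2 h array.

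**Figure D3:**
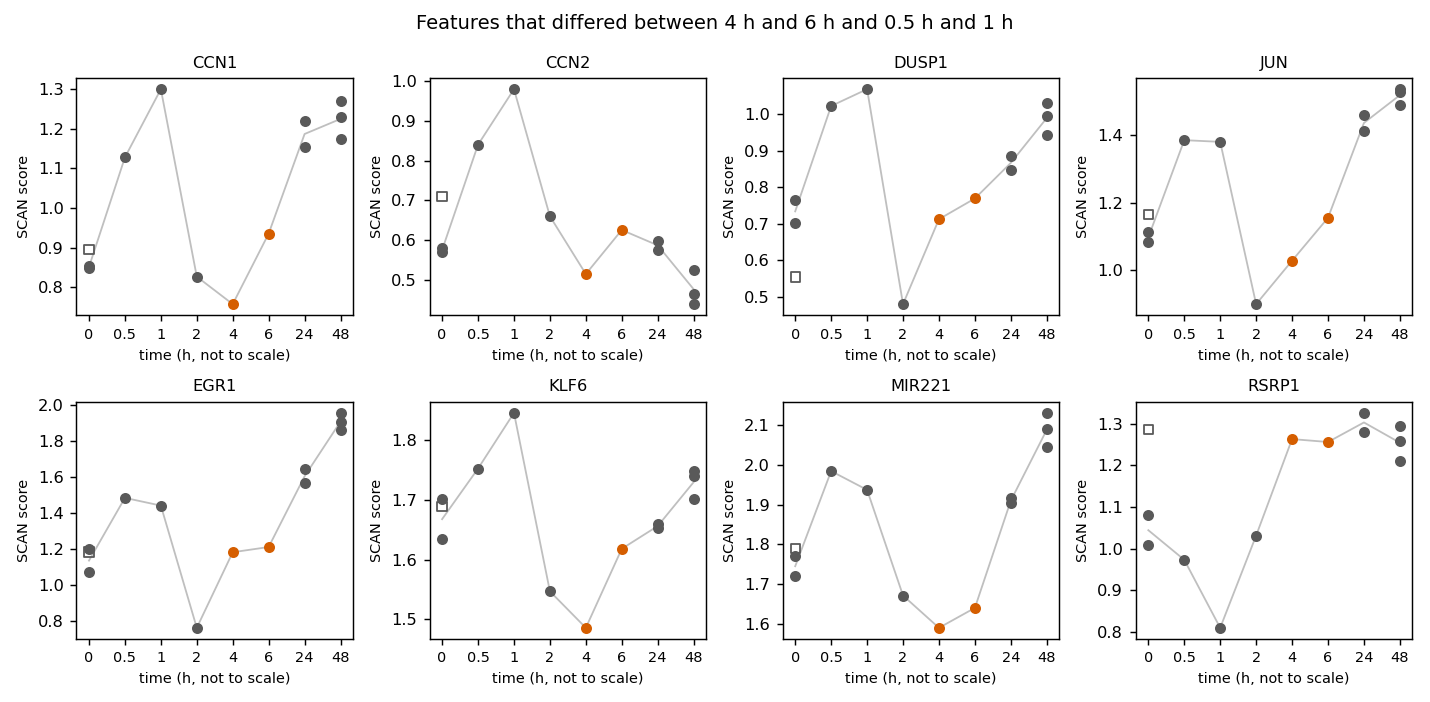
SCAN score (vertical axis) of 8 features that differed between 4 h and 6 h and the first hour, on each of the 13 arrays by time in hours (horizontal axis, not to scale). Points are single arrays, 4 h and 6 h in orange and 0 h replicate 1 as an open square, and the line joins the means without it. CCN1, CCN2, DUSP1, JUN, EGR1, KLF6 and MIR221 are high at 0.5 h and 1 h and back near or below 0 h at 4 h and 6 h, and RSRP1 runs the other way. CCN1, JUN, EGR1 and MIR221 are high again at 24 h and 48 h.

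The called genes were placed beside 40 gene lists, described by counts and medians. In the list of alveolar type II and airway secretory genes, 3 of 14 measured members rose (PAEP, CXCL17 and SFTPA1) without 0 h replicate 1 and none fell, at a median of 0.0722 against 0.0182 over all tested features, and of 0.0716 against 0.0112 with that array. Both later arrays were above all 3 of 0 h for 8 of the 14, against 12.8% of all features. Without 0 h replicate 1 the list median was already 0.0632 at 0.5 h and 0.0485 at 1 h, where that of all features was 0.0367 and 0.0258. NAPSA, the aspartic protease that processes surfactant protein B, scored 0.368, 0.491 and 0.470 at 0 h, 0.736 at 4 h and 0.587 at 6 h (0.181, adjusted p = 0.118), and CEACAM6, a cell adhesion molecule, 0.250, 0.230 and 0.231 at 0 h, 0.456 and 0.314 later (0.154, adjusted p = 0.109). NKX2-1, the transcription factor that sets the identity of lung epithelium, had a difference of -0.0458 (adjusted p = 0.638). The surfactant genes SFTPB, SFTPC and SFTPD stayed between -0.0256 and 0.199 on the 5 arrays, near background. This list had been chosen with earlier results of these data in view, so its count is no independent evidence of its direction.

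In the list of interferon-stimulated genes, which does not hold the called gene SAMD9L, none of 19 measured members was called. Their median was 0.0773 without and 0.101 with 0 h replicate 1, and 10 of the 19 were above all 3 arrays of 0 h on both later arrays, against 12.8% of all tested features. Without 0 h replicate 1 the list median was already 0.0870 at 0.5 h and 0.0438 at 1 h, where that of all features was 0.0367 and 0.0258. IFI44L scored 1.71, 1.66 and 1.66 at 0 h, 1.81 at 4 h and 1.87 at 6 h (0.179, adjusted p = 0.0677), and OAS1, a sensor of double-stranded RNA, 1.38, 1.37 and 1.38 at 0 h, 1.51 and 1.56 later (0.160, adjusted p = 0.0989). IRF9, a subunit of the factor that binds interferon response elements, had 0.152 (adjusted p = 0.105), whereas IFITM3 had -0.117 (adjusted p = 0.178). The median of the list stayed above that of all features after quantile normalisation (0.0485 without 0 h replicate 1) and after centring (0.0439).

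None of the 20 genes of cholesterol and fatty acid synthesis was called either, at a median of 0.0601 without and 0.0469 with 0 h replicate 1, and 7 of the 20 lay above all arrays of 0 h, against 12.8% of all. ACSS2, which makes acetyl-CoA from acetate, scored 1.53, 1.51 and 1.53 at 0 h, 1.71 at 4 h and 1.67 at 6 h (0.171, adjusted p = 0.105), and FDPS, farnesyl diphosphate synthase, had 0.164 (adjusted p = 0.122). For the enzymes HMGCS1, SQLE and IDI1 and for STARD4, a sterol carrier, 0 h replicate 1 was above 1 or both of the later arrays. Of 16 FOXO factors and targets none was called against 0 h, at a median of 0.0439 without and 0.0340 with 0 h replicate 1, with TXNIP first and ARRDC4, its paralogue, at 0.178 (adjusted p = 0.0917).

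The heat shock list had a median of -0.0670 over 8 measured genes (-0.0624 with 0 h replicate 1), with none called and 3 below all arrays of 0 h, against 5.86% of all tested features. HSPA1A and HSPA1B, which encode the same inducible HSP70 and cannot be told apart by these probes, had -0.176 and -0.186 (adjusted p = 0.0677 and 0.0656), with HSPA1B at 2.25 to 2.40 at 0 h and 2.18 and 2.23 later. HSPB1, a small heat shock protein, had -0.138 (adjusted p = 0.127). Of the cell division genes CDC20, an activator of the anaphase-promoting complex, had -0.198 (adjusted p = 0.0582), but the mitosis list as a whole had a median of 0.00837 and the DNA replication list of -0.00463, and with 0 h replicate 1 these were -0.0215 and 0.00770. Among the other lists none had a called member except the microRNA loci, and over all 40 the medians without 0 h replicate 1 ran from -0.0749 for 9 C/D box small nucleolar RNAs to 0.0792 for 4 endothelial markers, of which only KDR, a receptor of VEGF that other cell types express too, exceeded 0.1 (0.166, adjusted p = 0.137). With that array they ran from -0.0818 for the C/D box RNAs to 0.269 for 4 replication-dependent histones, whose median without it was 0.0289. The histone list does not hold the called feature that is shared by several histone H3 genes.

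**Figure D4:**
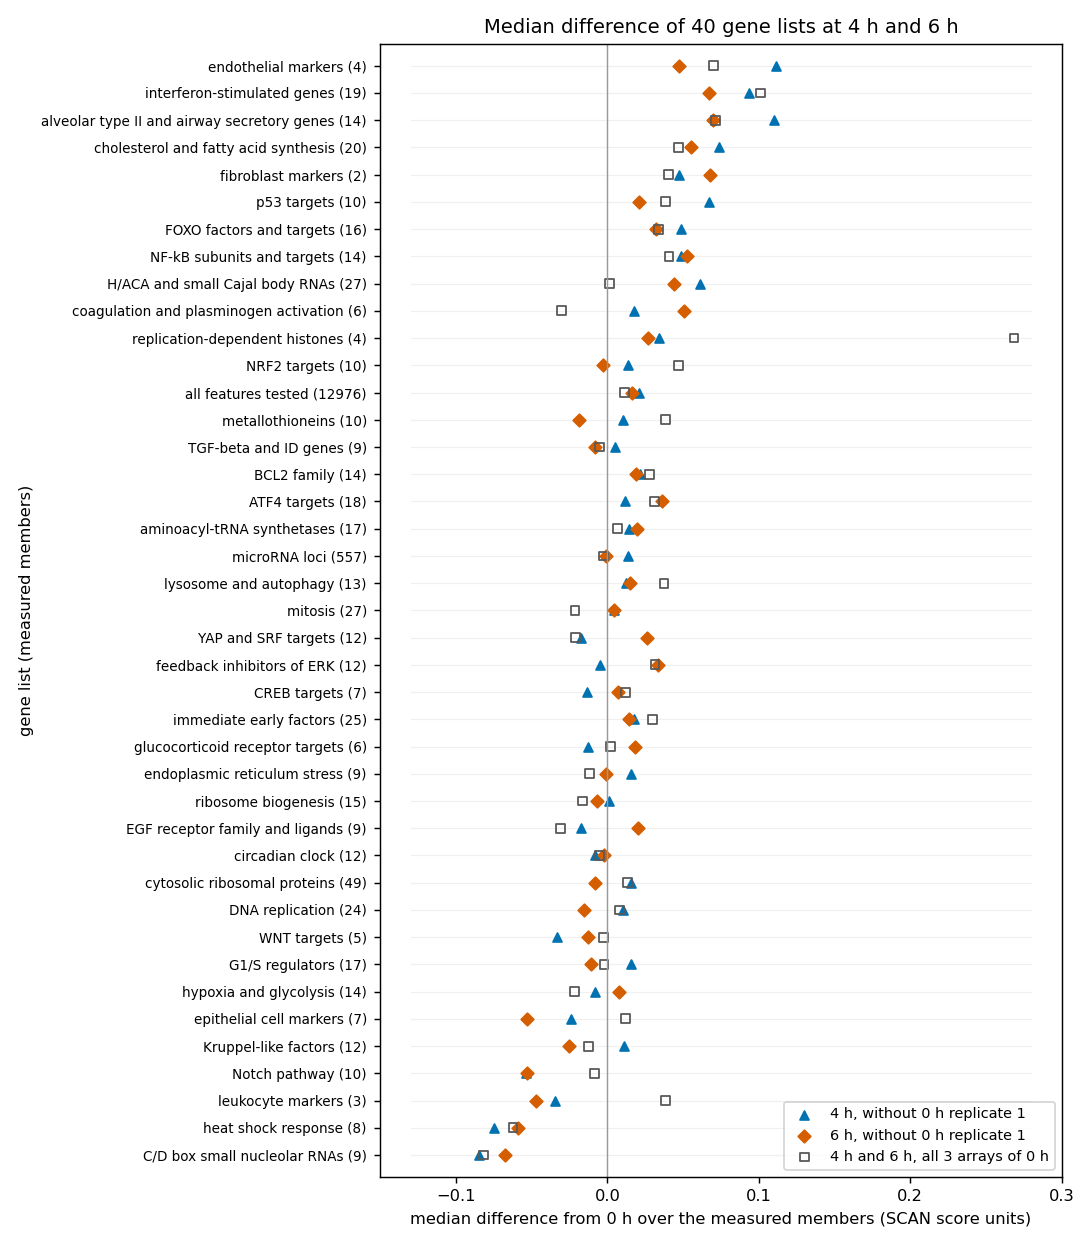
Median difference from 0 h (score units, horizontal axis) over the measured members of 40 gene lists and over all tested features, with the number of features in brackets. Triangles and diamonds are the 4 h and the 6 h array without 0 h replicate 1, open squares both arrays against all 3 arrays of 0 h; interferon-stimulated, alveolar and secretory, and cholesterol genes lie above the median of all features in all 3, while heat shock genes and C/D box RNAs lie below it.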

How the data were processed

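The authors preprocessed each array with SCAN on its own; the unit of the deposited values is a score, and a genome build is not given in the sources used here. The platform annotation named 15426 features and a list in the supplement named 212 more, of which 39 belong to several genes and stay unnamed. Named features with no score of at least 0 were left out (2662), and 118 of those tested repeat another's values. Differences were fitted with limma 3.58.1 (R 4.3.3, lmFit, eBayes), with each time point as 1 level, two-sided, Benjamini-Hochberg over all tested features, threshold 0.05. The lone 4 h and 6 h arrays are thereby assumed to vary like the replicated times. A call also needed both later arrays on the same side of every reference array. Residual degrees of freedom were 5, and 4 without 0 h replicate 1, and the number of arrays limits the precision (median SE 0.0456 and 0.0393). Members, lists and tests were chosen with earlier results of these data known. Named were the 15 largest rises and falls, taken from the fit without 0 h replicate 1 since none passed over 13 arrays, up to 4 members per list by adjusted p, and genes the study discusses, of which SNORA11 was not matched; other genes were named after their values were seen. Scripts were tested on simulated data and ran under Python 3.11.15 (pandas 2.3.3, numpy 2.4.6, matplotlib 3.10.9). The alternatives were scaling, filters, the variance model, array weights, 1 feature per gene, the replicate number as a block and arrays left out.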

Additional observations from a re-analysis of the deposited data

How the results depend on the processing

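For 4 h and 6 h against 0 h, the count of 0 over 13 arrays became 24 without 0 h replicate 1 and 8 with array weights, and stayed 0 under each other alternative. Without 0 h replicate 1 the count was 6 with the replicate block, 9 after quantile normalisation, 63 with a mean score of at least 0.2 and 99 with a trended and robust variance. With 1 more array left out it ran from 1 (without the 4 h array) to 17: 2 without 0 h replicate 2, 14 without 0 h replicate 3, 9 without the 6 h array, 15 without either 24 h array and 14 without 48 h replicate 2. Of the 24 called features, 9 kept their call after quantile normalisation, 11 after centring, 6 with the block, 1 without the 4 h array, 2 without 0 h replicate 2, 9 without the 6 h array and 24 with the trended variance. These further alternatives without 0 h replicate 1 were chosen after seeing the data. Same-numbered arrays did not deviate together (correlations from -0.152 to 0.062), so the numbers were not taken as pairs.

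Against 0.5 h and 1 h, 0 became 22 without 0 h replicate 1 and 17 with array weights. From 22 it went to 10 with the replicate block, to 44 with the trended variance, and from 4 (without the 4 h array) to 23 with 1 more array left out. For 24 h against 4 h and 6 h, 269 became 1346 without 0 h replicate 1, 6 with the replicate block and 1170 with array weights. With 1 array left out it ran from 0 (without 24 h replicate 3) to 1346, with 12 without the 4 h array, 87 without the 6 h array and 8 without 24 h replicate 1. From 1346 it became 524 with the block and ran from 578 (without 24 h replicate 3) to 1335 with 1 more array left out. Between 4 h and 6 h the count stayed 0. None of the 24 features called against 0 h changed direction in an alternative without 0 h replicate 1. The cause of these shifts was not tested. Scores near 0 are background, which limits the differences of dim features such as SFTPA1, GCSHP3 and FOS.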

Other observations

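The 2 h array belongs to no comparison above. For 20 of the 24 features called at 4 h and 6 h, the 2 h array and 0 h replicate 1 lay on the same side of 0 h replicates 2 and 3. These features were chosen for a difference from replicates 2 and 3, so nothing is read from this count. Of the 22 that rose, 19 had both the 0.5 h and the 1 h array above these replicates too. The same choice of features favours this count, so nothing is read from it either. The 2 h array and 0 h replicate 1 shared low scores of abundant transcripts that were not called at 4 h and 6 h. IFI6, an interferon-induced mitochondrial protein, scored 1.90 on 0 h replicate 1 and 1.98 at 2 h, and 2.41 to 2.50 on the other 6 arrays up to 6 h. KRT18 scored 2.51 and 2.52 on the pair and 2.86 to 2.97 on the others. AREG, the EGF receptor ligand amphiregulin, was high on the pair instead, at 2.36 and 2.52 against 1.86 to 2.12. The immediate early genes were lowest at 2 h among all 13 arrays for EGR1 (0.764), JUN (0.900) and MYC (0.975), and on 0 h replicate 1 MYC (1.03) was low as well but EGR1 (1.19) and JUN (1.17) were not.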
